A study of Mus musculus with 24 samples.

Results

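The 9 genes described here encode receptors of the TNF receptor superfamily that sit on T cells: Tnfrsf4 (OX40), Tnfrsf9 (4-1BB), Tnfrsf18 (GITR), Tnfrsf1b (TNFR2), Tnfrsf8 (CD30), Tnfrsf14 (HVEM), Tnfrsf25 (DR3), Cd27 and Fas (CD95). They were chosen by name, as the 9 rows of 54446 in a table of read counts whose mouse Ensembl identifiers carry these symbols, and all 9 had enough counts to be tested. The counts came from messenger RNA of CD4+ T cells taken from the spleens of wild type (WT) and Aim2-/- mice, both on the C57BL6 background. Aim2-/- mice lack the cytosolic DNA sensor AIM2. Cells of 3 mice per genotype were left unstimulated (0 h) or were stimulated in culture for 3, 6 or 24 h through the T cell receptor (anti-CD3) and the costimulator CD28 (anti-CD28), which gave 8 groups of 3 libraries. No treatment was shared by the unstimulated groups beyond the isolation, no age was given in the labels, and no restriction of the Aim2 deletion to a cell type was described. The WT mice were numbered 1, 3 and 4 and the Aim2-/- mice 1, 2 and 4, and values below follow that order.

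These receptors bind trimeric ligands of the TNF family and, with the exception of Fas and DR3, lack the cytoplasmic death domain, so that they signal mainly through TRAF adaptors to NF-kB. OX40, 4-1BB, GITR, TNFR2, CD30 and CD27 give T cells a second signal after antigen recognition, HVEM binds both the ligand LIGHT and the inhibitory receptor BTLA, and Fas is the receptor through which Fas ligand triggers cell death. OX40, 4-1BB, GITR and TNFR2 are also known to be abundant on regulatory T (Treg) cells, which express the transcription factor Foxp3.

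Libraries held from 19715161 to 21627018 counts assigned to genes. Values are counts per 1000000 counts (CPM) on library sizes scaled by the trimmed mean of M-values, and 3 counts, the smallest level taken as detected, were worth at most 0.155 CPM. The 24 libraries carried CD4 T cell markers at 2938 to 4486 CPM summed over 7 genes, against 7.74 to 15.6 CPM for the 2 CD8 T cell genes. Aim2 itself went against 1 label: its 0 h level in the mouse labelled WT 1 was 21.5 CPM, against 74.9 and 67.4 CPM in WT mice 3 and 4 and 15.7 to 20.1 CPM in the Aim2-/- mice, and at 3, 6 and 24 h it likewise lay within or just above the Aim2-/- range. Among receptor changes larger than their own standard error (SE), calls that moved without the mouse labelled WT 1 are therefore given with and without it. Levels, sums and calls of other genes are given only with it. Fits with a block or with marker scores were run only with it. In bulk RNA, fewer cells of a type and less RNA per cell cannot be told apart, and CPM is a share of the library, so that a gene with constant copies per cell would fall in CPM where the total per cell grew.

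Of the 9 genes, 7 lie on chromosome 4 (GRCm38, GENCODE annotation) within 10.8 Mb, on a chromosome that holds 6.054% of the protein-coding genes. Tnfrsf4 (chr4:156013843-156016612, plus strand) ends 9551 bp before Tnfrsf18 (chr4:156026164-156028895, plus strand), with 2 genes between them. Tnfrsf1b (chr4:145213463-145246870, minus strand) lies 20266 bp from Tnfrsf8 (chr4:145267137-145315164, minus strand), with 0 annotated genes between. Tnfrsf9 (chr4:150914562-150946102), Tnfrsf25 (chr4:152115934-152120119) and Tnfrsf14 (chr4:154921933-154928563) complete the group, while Cd27 is at chr6:125232622-125237010 and Fas at chr19:34290666-34327772. Tnfrsf18 shares 414 exonic bases with the antisense gene Gm16008, and whether the counting used strand is not given in the sources used here, but Gm16008 held 0.0489 to 1.21 CPM against 237 CPM or more for Tnfrsf18.

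The sequences just before the start sites are shown because 3 of the 9 receptors, Tnfrsf9, Tnfrsf8 and Fas, rose at 3 or 6 h (below). RefSeq (GRCm38.p6) gave 11 windows of 250 bases for the 9 genes, 2 each for Tnfrsf9 and Tnfrsf25. Both strands were searched for 5 motifs of factors known in activated T cells, chosen with the responses known: the NF-kB consensus, AP-1 (TGANTCA), the cAMP response element (TGACGTCA), STAT (TTCNNNGAA) and the NFAT core (GGAAA). The AP-1 letters were found in 3 windows, those of Tnfrsf8, Tnfrsf9 and Fas, and in 6.75% of the 32851 windows of that length in the table. The NF-kB consensus was found in 2 windows, those of Tnfrsf8 and Tnfrsf9, and in 3.9% of all windows. The STAT letters were found in 5 windows, those of Tnfrsf1b, Tnfrsf9, Tnfrsf25, Tnfrsf18 and Fas, and in 7.02% of all windows. The NFAT core was found in 9, all but those of Tnfrsf8 and Tnfrsf1b, and in 55.6% of all windows. The cAMP response element was found in 0 (1.55% of all). A match is only a run of letters in the window and no binding was measured.

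Capitals mark NF-kB, AP-1 and STAT matches, and each sequence reads 5' to 3' on the strand of its gene. For Tnfrsf8 (chr4:145315165-145315414, minus strand) the NF-kB match begins 168 bases and the AP-1 match 132 bases before the start site. For Fas (chr19:34290409-34290658, plus strand) the AP-1 match begins 211 bases and the STAT match 93 bases before it. Tnfrsf1b (chr4:145246871-145247120, minus strand), whose transcript fell at every time, holds neither NF-kB nor AP-1 letters. The same is true of Tnfrsf4, which was higher at 24 h, and of Tnfrsf18, Tnfrsf25, Tnfrsf14, Cd27 and the upstream window of Tnfrsf9. A link between these letters and the responses was not tested.
Tnfrsf8 promoter: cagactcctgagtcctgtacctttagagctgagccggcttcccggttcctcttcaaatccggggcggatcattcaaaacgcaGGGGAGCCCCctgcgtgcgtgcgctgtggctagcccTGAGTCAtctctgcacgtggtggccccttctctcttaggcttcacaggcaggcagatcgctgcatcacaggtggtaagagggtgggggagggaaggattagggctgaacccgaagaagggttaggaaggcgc
Fas promoter: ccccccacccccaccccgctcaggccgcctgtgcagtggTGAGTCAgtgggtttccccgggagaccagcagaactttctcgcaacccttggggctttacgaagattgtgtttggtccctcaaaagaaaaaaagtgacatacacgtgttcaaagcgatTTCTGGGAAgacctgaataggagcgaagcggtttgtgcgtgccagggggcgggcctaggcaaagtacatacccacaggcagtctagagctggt
Tnfrsf1b promoter: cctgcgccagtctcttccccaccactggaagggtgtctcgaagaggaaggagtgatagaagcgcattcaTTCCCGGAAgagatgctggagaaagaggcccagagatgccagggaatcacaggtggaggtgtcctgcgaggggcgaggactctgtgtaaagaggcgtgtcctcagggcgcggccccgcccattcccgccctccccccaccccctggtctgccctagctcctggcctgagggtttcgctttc

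For Tnfrsf9, the window before the downstream of its 2 RefSeq start sites overlaps an exon of another annotated transcript, so only the matches are printed. The first stretch (chr4:150927947-150927975, plus strand) holds 2 overlapping NF-kB matches that begin 43 and 42 bases before the start site, and the second (chr4:150927975-150927998, plus strand) the AP-1 match, which begins 15 bases before it.
Tnfrsf9 NF-kB: agagcagctGGGGATTTCCCaggaggccc
Tnfrsf9 AP-1: ctgctcagtTGAGTCAcaggtcct

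In unstimulated WT cells the receptors covered a wide range of levels. Per kilobase of exon, so that genes can be compared, Tnfrsf4 was highest with 264 ± 40.6 CPM per kb (mean ± SD, n = 3), followed by Tnfrsf1b with 220 ± 13.0, Tnfrsf18 with 193 ± 14.3, Cd27 with 165 ± 17.0, Tnfrsf9 with 77.3 ± 11.7, Tnfrsf25 with 49.7 ± 5.51, Tnfrsf14 with 40.6 ± 2.62, Fas with 15.2 ± 0.410 and Tnfrsf8 with 1.20 ± 0.492. Among neighbours in that order, the ranges of the 3 mice overlapped for Tnfrsf18 and Cd27 and for no other pair. Tnfrsf8 rested on as few as 45 counts in a library, while each of the other genes had at least 171.

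By 24 h the mix of receptors had changed. Summed over the 9 genes, WT cells held 1026 ± 39.0 CPM per kb at 0 h, and 1125 ± 96.0, 1181 ± 78.2 and 851 ± 29.9 CPM per kb after 3, 6 and 24 h. Of these sums, Tnfrsf4 took 25.7% ± 3.09 at 0 h and 56.9% ± 0.787 at 24 h, Tnfrsf1b took 21.4% ± 0.633 and then 4.15% ± 0.958, and Cd27 took 16.2% ± 2.27 and then 5.70% ± 0.406. Tnfrsf9 held its largest share at 6 h, with 28.0% ± 0.572, where its range overlapped that of Tnfrsf4. Aim2-/- cells held 1491 ± 181 CPM per kb at 0 h and 1108 ± 141 at 24 h, of which Tnfrsf4 took 30.3% ± 1.66 and 55.8% ± 2.41. In Aim2-/- cells at 24 h, Tnfrsf14, Tnfrsf8 and Fas had overlapping ranges at the foot of the order, with means of 8.67, 7.70 and 7.43 CPM per kb.

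**Figure D1:**
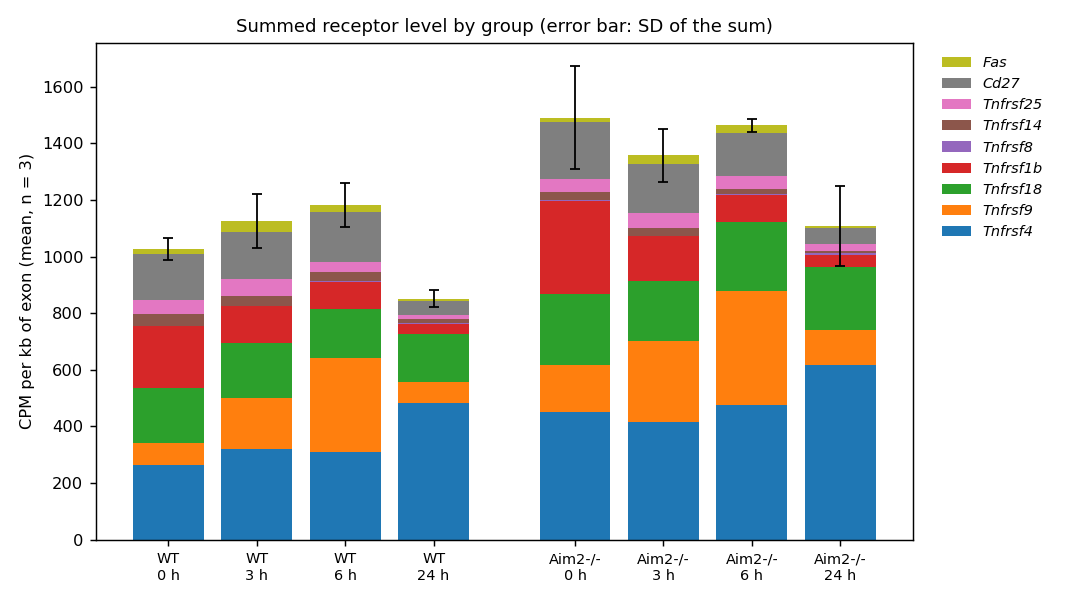
Stacked bars give the mean CPM per kilobase of exon of each receptor (n = 3 mice) in the 8 groups, WT on the left and Aim2-/- on the right, at 0, 3, 6 and 24 h; the error bar is the SD of the sum of the 9 genes. Tnfrsf4 (lowest segment) makes up 25.7% of the WT sum at 0 h and 56.9% at 24 h, and the Tnfrsf9 segment is widest at 6 h.

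Stimulation was compared with 0 h within each genotype by edgeR's quasi-likelihood F test, with adjusted p-values by Benjamini-Hochberg over 15325 genes and a call at an adjusted p under 0.05. No library came from cells cultured for 3, 6 or 24 h without stimulation. Effects of stimulation and of time in culture therefore cannot be told apart. In WT cells, 2 of the 9 receptors rose and 1 fell at 3 h, when 16.2% of all tested genes rose and 16.4% fell. At 6 h, 3 rose and 2 fell, against 26.4% and 24.8% of all genes. At 24 h, 2 rose and 5 fell, against 36.6% and 34.8%. In Aim2-/- cells, 2 rose and 1 fell at 3 h (16.1% and 14.6% of all genes), 3 rose and 2 fell at 6 h (28.5% and 22.7%), and 2 rose and 6 fell at 24 h (36.8% and 33.5%). Libraries of 1 mouse deviated together, and with the mouse as a block the WT count at 3 h was 5 in place of 3, with Tnfrsf4 (log2 fold change 0.28 ± 0.10 SE, adjusted p = 0.0276, edgeR) and Tnfrsf25 (0.22 ± 0.09, adjusted p = 0.0447) added. The share of all genes called with that block was not counted.

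**Figure D2:**
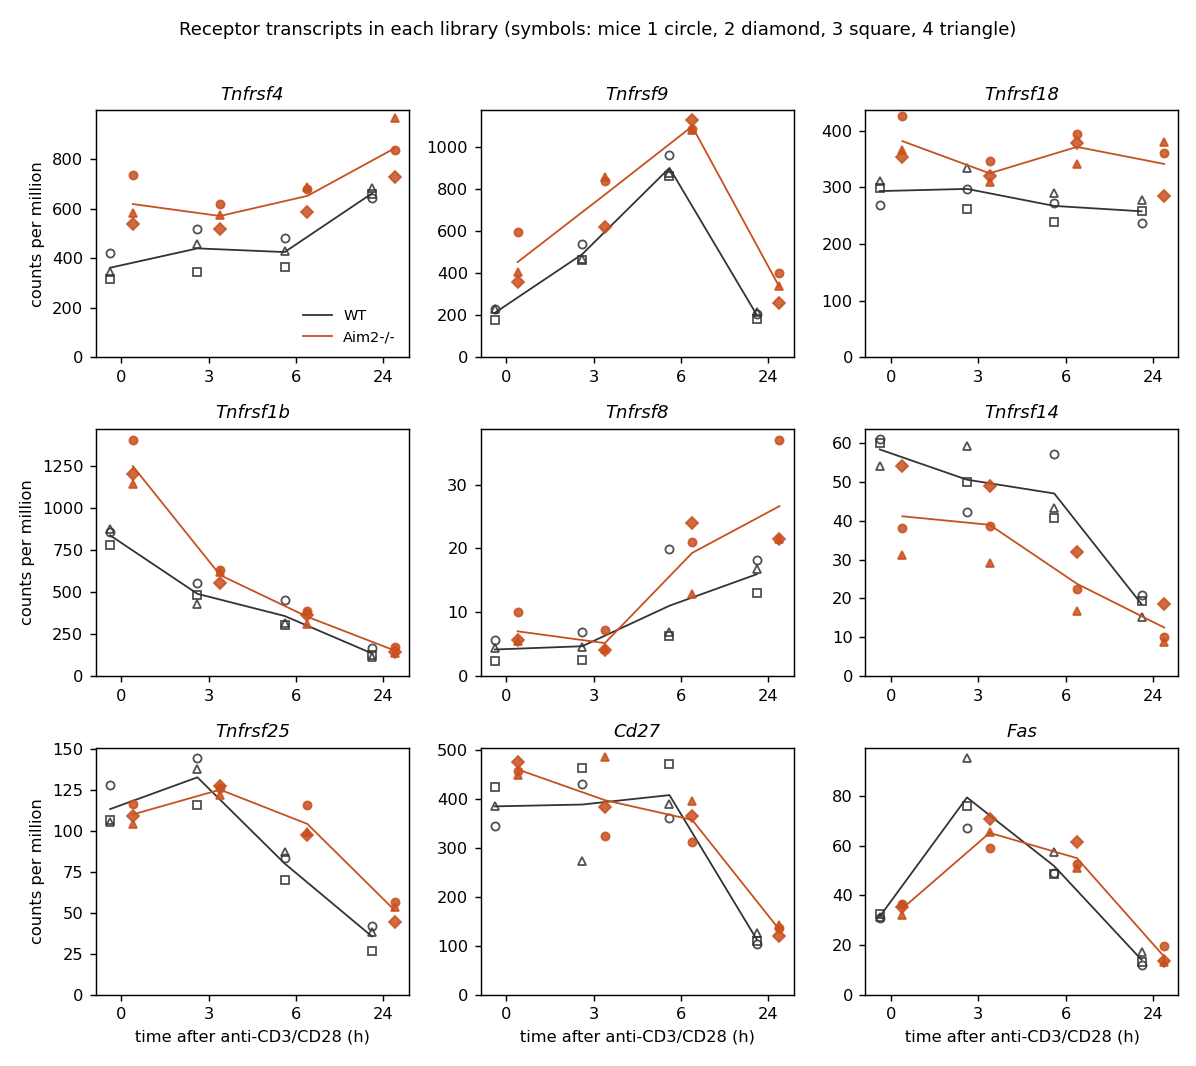
Each panel plots 1 receptor in CPM (linear axis from 0) against time after stimulation (0, 3, 6 and 24 h, evenly spaced); points are single libraries (open grey, WT; filled orange, Aim2-/-; symbol shape gives the mouse number) and lines join the means of 3 mice. Tnfrsf9 peaks at 6 h, Fas at 3 h, and Tnfrsf1b is lowest at 24 h in both genotypes.

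The early, transient receptors were Tnfrsf9 and Fas. Tnfrsf9, whose product 4-1BB is an activation-induced costimulator, read 229, 174 and 229 CPM in the WT mice at 0 h, 539, 461 and 467 CPM at 3 h, 960, 861 and 877 CPM at 6 h, and 206, 181 and 215 CPM at 24 h. The 3 h and 6 h values lay above every 0 h value, and the 24 h values lay back within the range at 0 h. The WT log2 fold change was 1.22 ± 0.17 at 3 h (adjusted p = 1.52e-05) and 2.09 ± 0.18 at 6 h (adjusted p = 5.02e-09). In the Aim2-/- mice, Tnfrsf9 read 594, 358 and 403 CPM at 0 h, 839, 620 and 858 CPM at 3 h, 1086, 1125 and 1079 CPM at 6 h, and 402, 259 and 338 CPM at 24 h. The Aim2-/- log2 fold change was 0.77 ± 0.17 at 3 h (adjusted p = 0.00167), 1.28 ± 0.17 at 6 h (adjusted p = 3.38e-06) and -0.44 ± 0.17 at 24 h (adjusted p = 0.028). The last of these was lost without Aim2-/- mouse 1 (-0.36, adjusted p = 0.068) or mouse 4 (-0.53, adjusted p = 0.0528), and the Aim2-/- rise at 3 h without mouse 4 (0.62, adjusted p = 0.0701).

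Fas, the death receptor, read 30.8, 32.4 and 31.1 CPM in the WT mice at 0 h, 67.2, 75.9 and 95.0 CPM at 3 h, 49.1, 48.6 and 57.6 CPM at 6 h, and 11.9, 13.0 and 17.2 CPM at 24 h. The 4 times did not overlap: Fas peaked at 3 h and ended below its starting level. Its WT log2 fold change was 1.34 ± 0.15 at 3 h (adjusted p = 9.38e-07), 0.72 ± 0.15 at 6 h (adjusted p = 0.000412) and -1.16 ± 0.16 at 24 h (adjusted p = 1.08e-06). In Aim2-/- cells the values were 0.91 ± 0.15, 0.66 ± 0.15 and -1.18 ± 0.16, all called. Averaged over the genotypes, 6 h against 3 h (2 of 9 receptors higher, 3 lower, against 20.8% and 17.4% of all genes) separated the pair, since Tnfrsf9 rose further by 0.69 ± 0.12 (adjusted p = 0.000134) while Fas fell by 0.43 ± 0.11 (log2 scale, adjusted p = 0.00262).

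Tnfrsf8 and Tnfrsf4 were the receptors that were higher at 24 h. Tnfrsf8 encodes CD30, a receptor of activated lymphocytes, and its transcript was scarce: 5.70, 2.32 and 4.41 CPM in the WT mice at 0 h, 19.9, 6.23 and 6.86 CPM at 6 h, and 18.1, 12.9 and 16.8 CPM at 24 h. At 6 h the mouse labelled WT 1 stood far above the other WT mice, and the WT rise at 6 h (1.41 ± 0.45, adjusted p = 0.0116) was lost without it (0.96, adjusted p = 0.0851). At 24 h Tnfrsf8 had risen by 1.94 ± 0.45 in WT (adjusted p = 0.000627) and by 1.93 ± 0.44 in Aim2-/- cells (adjusted p = 0.000559). The Aim2-/- mice read 10.02, 5.56 and 5.41 CPM at 0 h, 21.0, 24.0 and 12.9 CPM at 6 h and 37.0, 21.5 and 21.4 CPM at 24 h, and their rise at 6 h (1.46 ± 0.43, adjusted p = 0.00777) was lost without mouse 2 (1.14, adjusted p = 0.108). Between 3 and 6 h, over both genotypes, Tnfrsf8 rose by 1.57 ± 0.31 (adjusted p = 0.000443), and with the mouse as a block it rose again between 6 and 24 h (0.56 ± 0.15, adjusted p = 0.00258, against 0.144 without the block), as it did without the mouse labelled WT 1 (0.82). The rise from 6 to 24 h was also called by limma-voom (0.58, adjusted p = 0.0415) and by edgeR with no filter on low counts (0.47, adjusted p = 0.0498).

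Tnfrsf4, which encodes OX40, a receptor that sustains effector and memory T cells, read 422, 315 and 345 CPM in the WT mice at 0 h, 517, 344 and 455 CPM at 3 h, 480, 364 and 428 CPM at 6 h, and 644, 657 and 682 CPM at 24 h. The 24 h values lay above every earlier WT value. The WT log2 fold change at 24 h was 0.87 ± 0.15 (adjusted p = 3e-05), and the change at 6 h (0.23 ± 0.15) passed the test with the mouse as a block (adjusted p = 0.0454) and in no other fit run. In the Aim2-/- mice Tnfrsf4 read 736, 536 and 582 CPM at 0 h, 618, 516 and 575 CPM at 3 h, 679, 587 and 688 CPM at 6 h, and 838, 728 and 964 CPM at 24 h. The Aim2-/- ranges at 0 h and 24 h overlapped slightly, with 736 CPM at most and 728 CPM at least, and the rise of 0.45 ± 0.15 (adjusted p = 0.0124) was lost without Aim2-/- mouse 4 (0.30, adjusted p = 0.191). Between 6 and 24 h, in the main edgeR fit (genotypes averaged, all mice, no block), Tnfrsf4 was the 1 receptor that rose (0.51 ± 0.11, adjusted p = 0.000297) and 6 fell, against 33.6% of all genes that rose and 34.6% that fell.

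**Figure D3:**
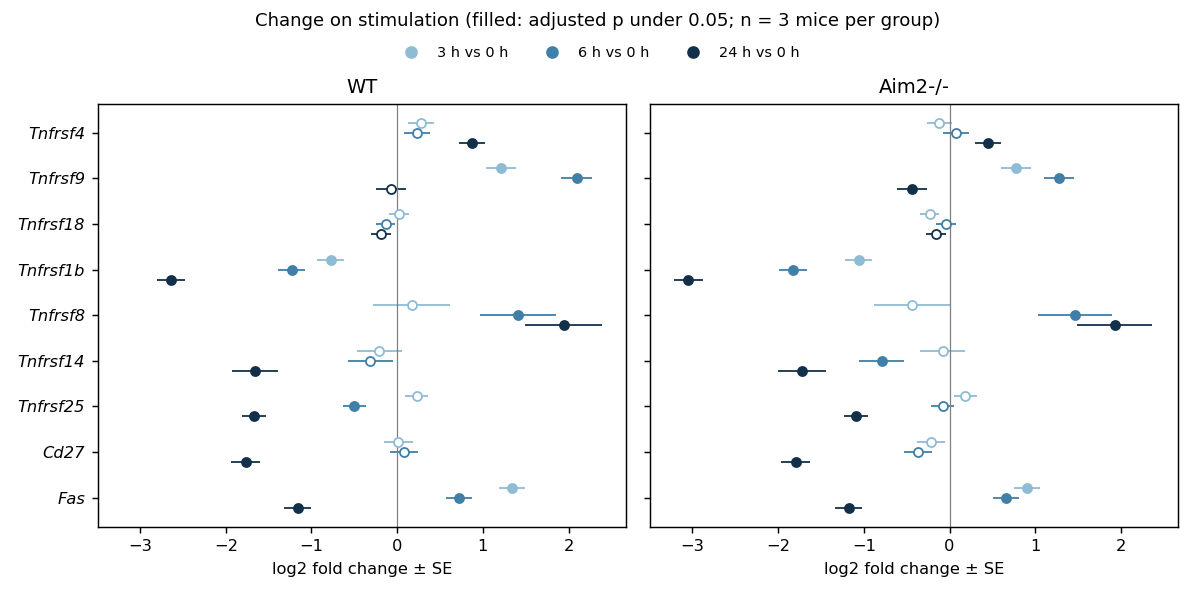
Points give the log2 fold change against 0 h of the same genotype (x axis; bars are SE, n = 3 mice per group) for each receptor at 3, 6 and 24 h (light to dark), WT left and Aim2-/- right; filled points passed an adjusted p under 0.05. Tnfrsf9 and Fas lie to the right at 3 and 6 h only, and 5 receptors in WT and 6 in Aim2-/- lie to the left at 24 h with filled points.

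Tnfrsf1b, Cd27, Tnfrsf25 and Tnfrsf14 fell by 24 h, as did Fas. Tnfrsf1b, which encodes TNFR2, the TNF receptor without a death domain, read 860, 782 and 874 CPM in the WT mice at 0 h, 555, 482 and 432 CPM at 3 h, 453, 306 and 313 CPM at 6 h, and 166, 124 and 113 CPM at 24 h. Each WT mouse fell at each step. The WT log2 fold change was -0.78 ± 0.16 after 3 h, -1.23 ± 0.16 by 6 h and -2.64 ± 0.17 by 24 h (adjusted p = 9.74e-12). In the Aim2-/- mice Tnfrsf1b read 1406, 1203 and 1145 CPM at 0 h, 632, 553 and 620 CPM at 3 h, 390, 360 and 308 CPM at 6 h, and 175, 143 and 136 CPM at 24 h, a log2 fold change of -3.05 ± 0.17 at 24 h (adjusted p = 2.52e-12). At 6 and 24 h, Tnfrsf1b and its neighbour on the chromosome, Tnfrsf8, had moved in opposite directions from 0 h in both genotypes. At 3 h Tnfrsf8 was called in neither (0.17 ± 0.45 in WT and -0.44 ± 0.44 in Aim2-/- cells).

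Some markers of other cells, of CD4 T cells and of Treg cells moved over the same 24 h. In WT cells the B cell sum went from 9.22 to 11.5 CPM at 0 h to 4.10 to 5.22 CPM (4 of 8 genes called lower), and the myeloid sum from 39.5 to 72.5 CPM to 16.3 to 27.6 CPM (5 of 10). Of all genes, 34.8% were called lower. NK cell genes were called lower in 2 of 4 and dendritic cell genes in 1 of 3 tested. Calls numbered 0 of 6 for erythroid, 0 of 4 for basophil and mast cell and 0 of 2 for CD8 T cell genes. Of the 7 CD4 T cell genes, 6 were called lower and 1 higher. Of the 5 Treg genes, Foxp3 (-1.09 ± 0.26), Ikzf2 (-2.34 ± 0.38) and Ctla4 (adjusted p = 1.27e-07) fell and Il2ra (2.94 ± 0.16) and Capg (1.53 ± 0.24) rose. Their part in the receptor changes was not tested.

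Cd27, the receptor for CD70 and a feature of naive and memory T cells, was 385 ± 39.5 CPM in unstimulated WT cells, 389 ± 102 CPM at 3 h, 408 ± 57.0 CPM at 6 h and then 113 ± 11.8 CPM. Its fall came late: the log2 fold change at 24 h was -1.77 ± 0.17 in WT (adjusted p = 7.13e-09) and -1.79 ± 0.17 in Aim2-/- cells (adjusted p = 6.73e-09), and in Aim2-/- cells at 6 h it was -0.37 ± 0.17, which missed the threshold (adjusted p = 0.0708) but passed with the mouse as a block (-0.38 ± 0.14, adjusted p = 0.0242), by DESeq2 (-0.43, adjusted p = 0.0227) and in some other fits. Tnfrsf25, which encodes the TL1A receptor DR3, read 128, 106 and 106 CPM in the WT mice at 0 h, 144, 116 and 137 CPM at 3 h, 83.1, 70.0 and 86.8 CPM at 6 h and 41.7, 26.6 and 38.4 CPM at 24 h. In WT it fell by 0.50 ± 0.13 at 6 h (log2 scale, adjusted p = 0.00369) and by 1.67 ± 0.14 at 24 h (adjusted p = 7.57e-10). In the Aim2-/- mice it read 116, 109 and 104 CPM at 0 h, 116, 97.2 and 99.4 CPM at 6 h and 56.5, 44.3 and 53.7 CPM at 24 h, and it fell by 1.09 ± 0.14 at 24 h (adjusted p = 3.92e-07).

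Tnfrsf14, which encodes HVEM, read 61.0, 60.1 and 54.1 CPM in the WT mice at 0 h, 57.2, 40.6 and 43.3 CPM at 6 h and 21.0, 19.4 and 15.2 CPM at 24 h. The Aim2-/- mice read 38.0, 54.2 and 31.2 CPM at 0 h, 22.5, 31.9 and 16.8 CPM at 6 h and 10.1, 18.5 and 8.77 CPM at 24 h. The log2 fold change at 24 h was -1.66 ± 0.27 in WT (adjusted p = 1.35e-05) and -1.72 ± 0.28 in Aim2-/- cells (adjusted p = 1.1e-05), and the difference of the changes was smaller than its own SE of 0.38. At 6 h Tnfrsf14 had fallen in Aim2-/- cells (-0.79 ± 0.27, adjusted p = 0.0167; lost without Aim2-/- mouse 1, adjusted p = 0.0675), while the WT change of -0.31 ± 0.26 passed with the mouse as a block (-0.32 ± 0.13, adjusted p = 0.0426) and in no other fit run. The block also brought in its step from 3 to 6 h over both genotypes (-0.42 ± 0.09, adjusted p = 0.000815, against 0.0901 without), which also passed with no filter on low counts (adjusted p = 0.00769) and without Aim2-/- mouse 2 (adjusted p = 0.0157).

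Tnfrsf18, which encodes GITR, kept within a narrow range. Its means ran from 258 ± 20.9 to 297 ± 36.4 CPM over the 4 WT groups and from 325 ± 19.0 to 382 ± 39.3 CPM over the 4 Aim2-/- groups. It was called in 0 of the 6 comparisons with 0 h by edgeR, with 0 at an unadjusted p under 0.05 and 0 called by DESeq2 or limma-voom, and with the mouse as a block in 1 of them (Aim2-/- at 3 h, -0.23 ± 0.09, adjusted p = 0.0464). Fitted on the compared libraries alone, WT cells at 24 h gave -0.21 (adjusted p = 0.0417). Its neighbour Tnfrsf4 rose over the same 24 h.

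The genotypes were then compared at each time, to find where the loss of AIM2 went with another receptor level. At 0 h, 3 of the 9 receptors were higher in Aim2-/- cells, against 5.23% of all genes called in either direction. Tnfrsf9 was 2.14-fold higher (log2 fold change 1.10 ± 0.17, adjusted p = 0.00245), Tnfrsf4 1.71-fold (0.78 ± 0.15, adjusted p = 0.00979) and Tnfrsf1b 1.49-fold (0.58 ± 0.16, adjusted p = 0.0383). For each of the 3 genes the lowest Aim2-/- mouse lay above the highest WT mouse. That rests on the values that gave the calls and adds no support to them. The share of all genes without overlap was not counted. Tnfrsf18 read 269, 300 and 312 CPM in the WT mice and 427, 354 and 366 CPM in the Aim2-/- mice, also without overlap, but missed the threshold (0.38 ± 0.12, adjusted p = 0.0579). Without the mouse labelled WT 1 the 3 calls held (Tnfrsf9 1.16, Tnfrsf4 0.91 and Tnfrsf1b 0.60). The count was 1 without Aim2-/- mouse 1 or WT mouse 4, 5 without Aim2-/- mouse 2 and 0 without WT mouse 3, where the log2 fold changes were 0.94, 0.65 and 0.49 for Tnfrsf9, Tnfrsf4 and Tnfrsf1b.

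Markers of other cells moved with genotype at 0 h. Summed CPM over 4 basophil and mast cell genes ran from 7.04 to 9.81 in the WT mice and from 51.7 to 99.3 in the Aim2-/- mice, with 4 of 4 called higher. The 8 B cell genes summed to 9.22 to 11.5 CPM in WT and 21.5 to 51.9 CPM in Aim2-/- (3 of 8 called higher), the 10 myeloid genes to 39.5 to 72.5 CPM and 118 to 424 CPM (2 of 10), and the 6 erythroid genes to 7.70 to 71.7 CPM and 21.1 to 336 CPM (0 of 6 called by edgeR, 4 at an unadjusted p under 0.05). None of the markers in these 4 lists was at 0 throughout a group. Of all 15325 genes, 3649 had an unadjusted p under 0.05 by edgeR at 0 h. The sums of 4 dendritic cell genes (1.30 to 2.43 CPM in WT, 2.17 to 7.84 CPM in Aim2-/-) and of 4 NK cell genes (9.35 to 15.5 CPM and 11.6 to 21.9 CPM) overlapped between the genotypes. With B cell, myeloid and erythroid scores as terms of the model, Tnfrsf9 stayed called at 0 h (0.84, adjusted p = 0.0282), Tnfrsf4 was 0.69 (adjusted p = 0.0642) and Tnfrsf1b 0.37 (adjusted p = 0.266). Basophil and mast cell genes were not among these terms.

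The 5 Treg genes summed to 701 to 1021 CPM in the WT mice and 990 to 1252 CPM in the Aim2-/- mice at 0 h. Of the 5, edgeR called 0 and put 1 at an unadjusted p under 0.05, against 3649 of all 15325 genes. Foxp3 itself read 111, 84.9 and 117 CPM in the WT mice and 171, 140 and 135 CPM in the Aim2-/- mice, without overlap. Capg read 65.3, 54.2 and 66.0 CPM and then 128, 79.3 and 100.2 CPM. Il2ra, Ikzf2 and Ctla4 overlapped. Il2ra read 92.5, 84.5 and 124 CPM and then 100.4, 73.9 and 89.0 CPM. Ikzf2 read 250, 122 and 163 CPM and then 303, 221 and 198 CPM, and Ctla4 502, 355 and 385 CPM and then 550, 476 and 530 CPM. With the mean of the 5 Treg genes as a term, a fit added after the data were seen, the difference at 0 h was 0.86 for Tnfrsf9 (adjusted p = 0.00369), 0.63 for Tnfrsf4 (adjusted p = 0.0342) and 0.37 for Tnfrsf1b (adjusted p = 0.117). That score was 1 term over all 24 libraries, and its genes also moved with stimulation. It therefore cannot be read as the share of Treg cells. Beyond these fits, the part of other cell types in the receptor differences was not tested.

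**Figure D4:**
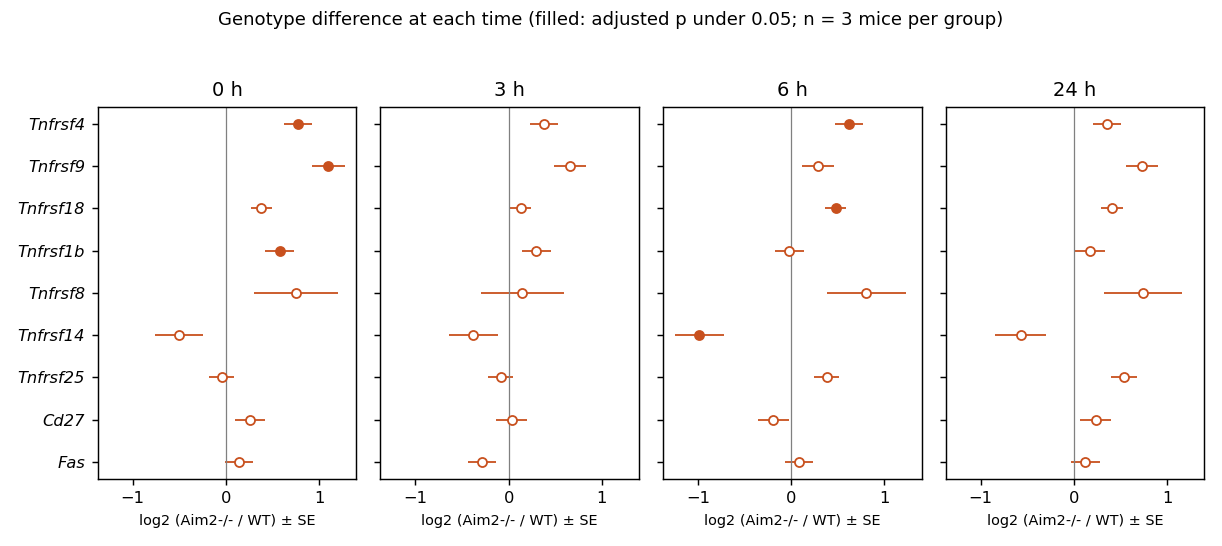
Points give the log2 ratio of Aim2-/- to WT cells (x axis; bars are SE, n = 3 mice per group) for each receptor at 0, 3, 6 and 24 h, and filled points passed an adjusted p under 0.05. Tnfrsf9, Tnfrsf4 and Tnfrsf1b are filled at 0 h, Tnfrsf4, Tnfrsf18 and Tnfrsf14 at 6 h, and no point is filled at 3 or 24 h.

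At 6 h, 3 receptors differed by genotype, against 15.8% of all genes. Tnfrsf4 (0.62 ± 0.15, adjusted p = 0.0159) and Tnfrsf18 (0.48 ± 0.12, adjusted p = 0.0151) were higher in Aim2-/- cells, and Tnfrsf14 was lower (-0.99 ± 0.27, adjusted p = 0.0216). The mice did not overlap for these 3 receptors, on the same values that gave the calls. Tnfrsf18 read 273, 239 and 291 CPM in the WT mice and 395, 379 and 341 CPM in the Aim2-/- mice. Without the mouse labelled WT 1, Tnfrsf14 was no longer called (-0.82, adjusted p = 0.0799) and Tnfrsf8 was (1.56, adjusted p = 0.0221, against 0.81 ± 0.42 with it). The count was 0 without Aim2-/- mouse 1, WT mouse 3 or WT mouse 4, and 1 without Aim2-/- mouse 4. Basophil and mast cell genes again stood higher in Aim2-/- cells (4 of 4 called, 69.7 to 143 CPM against 8.95 to 16.4 CPM), as did 4 of 8 B cell genes (19.2 to 55.7 CPM against 7.69 to 13.1 CPM) and 1 of 10 myeloid genes (73.4 to 266 CPM against 30.1 to 53.5 CPM), and of the 5 Treg genes Il2ra was lower (-0.50 ± 0.14, adjusted p = 0.0286). With B cell, myeloid and erythroid scores as terms, Tnfrsf4 was no longer called at 6 h (0.60, adjusted p = 0.0614), while Tnfrsf18 (0.52, adjusted p = 0.0197) and Tnfrsf14 (-0.92, adjusted p = 0.0236) were.

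At 3 h, 0 receptors were called by edgeR, against 0.294% of all genes, with 2 at an unadjusted p under 0.05, 1 by DESeq2 and 0 by limma-voom. Of all 15325 genes, 2351 had an unadjusted p under 0.05 by edgeR at 3 h and 3134 at 24 h. At 24 h, 0 were called against 0.666%, with 4 at an unadjusted p under 0.05 (Tnfrsf4, Tnfrsf9, Tnfrsf18 and Tnfrsf25), 3 by DESeq2 and 0 by limma-voom. The 4 had positive log2 fold changes at 24 h: 0.35 ± 0.15 for Tnfrsf4, 0.73 ± 0.17 for Tnfrsf9 (adjusted p = 0.052), 0.41 ± 0.12 for Tnfrsf18 and 0.53 ± 0.14 for Tnfrsf25. With the Treg score as a term they were 0.11 for Tnfrsf4, 0.34 for Tnfrsf9, 0.29 for Tnfrsf18 and 0.26 for Tnfrsf25, and 4 of 4 basophil and mast cell genes were higher in Aim2-/- cells at 24 h (43.0 to 175 CPM against 6.32 to 12.4 CPM), whose part was not tested. Without the mouse labelled WT 1, Tnfrsf25 was called at 24 h (0.66, adjusted p = 0.0382), and without Aim2-/- mouse 2 the count was 4.

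Whether stimulation changed a receptor differently in the 2 genotypes was tested as an interaction. Of all 15325 genes, 653, 2019 and 1825 had an unadjusted p under 0.05 by edgeR at 3, 6 and 24 h. By edgeR, 0 receptors were called at 3 h (0% of all genes, 0 receptors at an unadjusted p under 0.05, 0 by DESeq2 and 0 by limma-voom), 0 at 6 h (0.0261% of all genes, 3 unadjusted, 1 by DESeq2 and 0 by limma-voom) and 0 at 24 h (0% of all genes, 1 unadjusted, 0 by DESeq2 and 0 by limma-voom). The largest was Tnfrsf9 at 6 h: its rise was smaller in Aim2-/- cells by 0.81 ± 0.24 (adjusted p = 0.154). Within each mouse, the log2 ratio of Tnfrsf9 at 6 h to 0 h was 2.07, 2.31 and 1.94 in WT and 0.87, 1.65 and 1.42 in Aim2-/- cells, without overlap. With the mouse as a block, 2 receptors were called at 6 h, Tnfrsf9 (-0.78 ± 0.16, adjusted p = 0.013) and Tnfrsf1b (-0.57 ± 0.14, adjusted p = 0.0223), and 1 at 24 h, Tnfrsf25 (0.59 ± 0.13, adjusted p = 0.0196). The shares of all genes without overlap and of all genes called with the block were not counted.

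The ligands and partners of the 9 receptors were also read in these T cells, of which 10 of 12 were tested. At 24 h in WT cells 6 rose and 3 fell, with a median log2 fold change of 1.43, against -0.01 over all genes, of which 36.6% rose and 34.8% fell. Tnf, the ligand of TNFR2, went from 31.4 CPM at 0 h to 368 CPM at 6 h and 156 CPM at 24 h (WT means), and Lta rose by 3.34 ± 0.23 at 24 h (adjusted p = 3.97e-11). Tnfsf14, the ligand of HVEM, and Cd160, another HVEM partner, rose by 2.32 ± 0.30 and 2.31 ± 0.32, while Fasl fell by 2.00 ± 0.18 (adjusted p = 2.01e-09). The ligand gene of GITR, Tnfsf18, had 0 counts in each library, and that of DR3, Tnfsf15, stood at 0.0837 to 0.341 CPM over the group means. Between genotypes Tnf alone was called, at 6 h, where it was lower in Aim2-/- cells (-0.63 ± 0.18, adjusted p = 0.0258) and 15.8% of all genes were called.

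Of 19 adaptors and regulators downstream of the receptors, 1 rose (Fadd, 0.93 ± 0.13) and 14 fell at 24 h in WT cells, with a median of -0.68 against -0.01 over all genes and the same shares of all genes as above. The largest falls were those of Tnfaip3, which encodes the NF-kB brake A20 (-4.67 ± 0.14), Birc2 (-2.20 ± 0.11), which encodes the ubiquitin ligase cIAP1, Map3k14 (-2.03 ± 0.12), which encodes the kinase NIK, and Traf1 (-1.87 ± 0.11). At 6 h, 3 of the 19 were higher in Aim2-/- cells (Tnfaip3 0.38 ± 0.12, Nfkbia 0.32 ± 0.10 and Traf1 0.32 ± 0.11) and 4 were lower (Nfkb1 -0.43 ± 0.12, Traf3 -0.40 ± 0.09, Cflar -0.39 ± 0.08 and Traf6 -0.35 ± 0.11). Of all genes, 15.8% were called in either direction at 6 h. At 0 h Cflar, which encodes the caspase-8 inhibitor FLIP, was lower (-0.40 ± 0.08, adjusted p = 0.0149), when 5.23% of all genes were called.

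Among 19 other genes of the receptor superfamily, 15 were tested, and at 24 h in WT cells 4 rose and 7 fell (median -0.69, against -0.01 over all genes, of which 36.6% rose and 34.8% fell). Tnfrsf21, which encodes the death receptor DR6, rose by 3.61 ± 0.41, and Tnfrsf26 and Tnfrsf23 had log2 fold changes of -2.92 ± 0.17 and -2.44 ± 0.26. Tnfrsf17, a plasma cell receptor, was also called lower, but on 1 to 10 counts in a library at 0 h and 0 to 1 counts at 24 h, so no fold is given. At 0 h, when 5.23% of all genes were called, Tnfrsf13c (1.83 ± 0.53), Ltbr (1.75 ± 0.46) and Tnfrsf21 (1.50 ± 0.41) were higher and Tnfrsf26 (-0.60 ± 0.16) lower in Aim2-/- cells. At 6 h, when 15.8% of all genes were called, Tnfrsf13c (2.14 ± 0.53) and Cd40 (1.89 ± 0.53) were higher and Tnfrsf10b (-0.79 ± 0.21) lower. Tnfrsf17 was called higher too, on 4 to 29 counts in the Aim2-/- libraries against 0 to 3 counts in the WT libraries, which are at or under the floor of 3 counts. Tnfrsf13c, Tnfrsf17 and Cd40 are known as receptors of B cells, and the B cell sums given above were higher in Aim2-/- cells at both times. The part of B cells in these values was not tested.

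Across the 24 libraries, the receptors fell into those that followed one another and those that did not. Pearson's r of log2 CPM was 0.86 for Tnfrsf25 and Cd27, 0.84 for Tnfrsf1b and Cd27, 0.84 for Tnfrsf25 and Fas, and 0.77 for Tnfrsf4 and Tnfrsf8. It was -0.83 for Tnfrsf4 and Tnfrsf14, and 0.06 for Tnfrsf4 and Tnfrsf9. These values describe 24 points that share 6 mice and 4 times. Among 11115 other genes, the pattern of Tnfrsf4 was most like those of Prr5 (r = 0.93), Plscr1 (0.93) and Cdkn2c (0.92), and that of Tnfrsf9 most like those of Pisd (0.96), Gpr65 (0.92) and Naprt (0.92). Nearest to Tnfrsf1b were Dusp1 (0.99), March3 (0.98) and Antxr2 (0.98), to Tnfrsf25 Gtpbp2 (0.98), Ikzf4 (0.97) and Pbxip1 (0.97), and to Cd27 Rara (0.98), Arih2 (0.97) and Btg1 (0.97). Tnfrsf14 was closest to Smg1 (0.97), Papolg (0.97) and Ash1l (0.97), and Fas to Ubl3 (0.97), Irf7 (0.97) and Uba7 (0.97). Tnfrsf8 was closest to Ucp2, Trip10 and Serpinf1 (each 0.91), and Tnfrsf18 to Ctsg (0.85), Zc2hc1a (0.83) and Tspo (0.82). Of the first of these neighbours, that of Tnfrsf18 had the lowest r.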

How the data were processed

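The authors' deposited table held raw read counts per gene for 24 libraries made with a kit that keeps strand. The submitters' processing notes name STAR and the GRCm38 build, and the strand setting of the counting is not given in the sources used here. Each library was 1 group by 1 mouse, and its group was taken from its title. Rows were matched to GENCODE annotation of GRCm38 (54409 of 54446 identifiers). The members and gene lists were chosen with earlier results of these data known.

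Genes passing edgeR's filterByExpr (minimum count 10) were tested with edgeR 4.0.16 (quasi-likelihood F test, TMM scaling, 8 group means, all 24 libraries, two-sided, run in R 4.3.3), adjusted by Benjamini-Hochberg over 15325 genes in each comparison, with a call at an adjusted p under 0.05. The SE is the log2 fold change divided by the root of F. Log2 CPM used a prior count of 2. The 9 receptors were named in every comparison. Of each list, at most 4 called genes with the largest change in WT cells at 24 h were named, and those called between genotypes, and for each receptor the genes nearest in Pearson's r. A few further list genes (Fasl, Fadd and the ligand genes at or near 0) were named after their values were seen. The adjusted p-values rest on the spread of libraries within groups. Without a block, the main fit treated the 24 libraries of 6 mice as independent.

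Libraries of 1 mouse were checked for pairing: deviations from the group means correlated at 0.139 to 0.567 in 36 same-mouse pairs, so a fit with the mouse as a block was run for stimulation and interaction. Alternatives used DESeq2 1.42.0, limma-voom (limma 3.58.1), other scalings and filters, marker scores as terms, and each mouse left out. The test was checked on simulated counts drawn without an effect of the mouse, so that check does not bear on the pairing. Promoter sequences came from RefSeq, and figures were drawn with matplotlib 3.10.9.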

Additional observations from a re-analysis of the deposited data

Results flagged for a closer look

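With the mouse as a block, the test of the difference itself called 3 of the 9 receptors, counted over 6 h and 24 h together. Without the block, edgeR called none of them. The share of all genes called with the block was not counted. Over the 99 receptor values followed, a replicate block added 24 calls and removed 0. That block was the mouse for stimulation, steps and interactions. For comparisons between genotypes it was the mouse number, which does not pair the genotypes. Tnfrsf9 rose less by 6 h in Aim2-/- than in WT cells (difference of log2 fold changes -0.78 ± 0.16 SE, adjusted p = 0.013). Tnfrsf1b fell further by 6 h in Aim2-/- cells (-0.57 ± 0.14, adjusted p = 0.0223). Tnfrsf25 fell less by 24 h in Aim2-/- cells (0.59 ± 0.13, adjusted p = 0.0196). Tnfrsf9 and Tnfrsf1b were higher in Aim2-/- cells at 0 h and closer to WT at 6 h. The fit with the block was not run without the mouse labelled WT 1. Without that mouse and without the block, none was called by edgeR. The values were -0.83 for Tnfrsf9 (adjusted p = 0.281), -0.41 for Tnfrsf1b (adjusted p = 0.413) and 0.61 for Tnfrsf25 (adjusted p = 0.217).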

How the results depend on the processing

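Counts of receptors called over stimulation and the steps between times stayed within 1.5 times the reported count in each alternative, except 5 in place of 3 for WT cells at 3 h with the mouse as a block. Leaving out 1 mouse gave 3 to 3, 4 to 5 and 7 to 7 calls in WT cells at 3, 6 and 24 h, 2 to 3, 4 to 6 and 6 to 8 in Aim2-/- cells, 5 to 6 for 6 h against 3 h and 7 to 8 for 24 h against 6 h. Genotype counts moved more. At 0 h (3 called) they were 1 with B cell, myeloid and erythroid scores as terms and 0 to 5 leaving out 1 mouse. At 3 h (0 called) they were 1 by DESeq2, 1 with no filter on low counts and 0 to 1 leaving out 1 mouse. At 6 h (3 called) they were 0 to 3 leaving out 1 mouse. At 24 h (0 called) they were 1 with library totals only, 3 by DESeq2, 2 with no filter, 1 with a minimum mean of 1 CPM and 0 to 4 leaving out 1 mouse. The interaction count was 1 by DESeq2 and 1 with no filter at 6 h (0 called), 2 with the mouse as a block at 6 h and 1 at 24 h, and 0 to 0 leaving out 1 mouse. Libraries with the same mouse number in both genotypes correlated at -0.165 to 0.268 in 8 pairs, so the number does not pair the genotypes. As a replicate block it gave 5, 3, 6 and 5 calls at 0, 3, 6 and 24 h. Number 3 was found in WT alone and number 2 in Aim2-/- alone. The genotype differences of that fit therefore rest mainly on mice 1 and 4, among them the mouse labelled WT 1. The share of all genes called with it was not counted. Of the 135 values (9 receptors in 15 comparisons), 36 were smaller than their own SE and were not followed. Of the other 99, 2 changed sign, with the Treg score as a term: at 24 h between genotypes Tnfrsf1b was -0.14 and Tnfrsf8 -0.21, neither called. The cause of these moves was not tested. Depth limits Tnfrsf8, with as few as 45 counts in a library, more than the other 8 receptors.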
